A study of Mus musculus with 6 samples.

Results

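Peaks of the antioxidant transcription factor NRF2 were examined near the genes of ubiquitin conjugation, deubiquitination and the proteasome in mouse embryonic fibroblasts (MEFs). The genes were taken by the start of their symbol in the deposited peak lists: Psma, Psmb, Psmc, Psmd and Psme for proteasome subunits and activators, Ube2 for ubiquitin-conjugating enzymes, Usp for ubiquitin-specific proteases, Fbxo, Fbxl and Fbxw for F-box proteins, Trim for tripartite motif proteins, and Cul followed by a digit for cullins. Members were chosen by a measured value, the distance of a called peak: a gene was a member when a peak assigned to it lay within 50 kb of its transcription start site (TSS) in any of the 4 lists. This gave 68 genes with 103 peaks, out of 6513 genes of all kinds with such a peak. The MEFs were of strain 129S6/SvEvTac and either Wild-type (WT) or GCN2-/- (KO), lacking the kinase that senses amino acid shortage, and each genotype spent 24 h in complete DMEM or in DMEM without leucine. Each of the 4 conditions is 1 NRF2 chromatin immunoprecipitation library. The 2 inputs both came from complete medium, so the libraries without leucine had no input from their own medium. The labels do not say whether the cells were primary or a line, or how many embryos they came from. Peak lists do not measure expression, so neither the cell type nor the knockout can be checked in them.

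Since presence of a peak made a gene a member, counts of members with a peak are descriptions and no test was made. Each condition has a single library without a replicate, and sequencing depth is unknown. The WT lists held 2336 peaks with leucine and 5980 without it, and the KO lists 3141 and 4600. Series of 4 values below follow this order. The authors' score of a peak was used for its rank within its own list, where rank 1 is the highest score and peaks of equal score share the best of their ranks. A gene without a peak had no window past the calling threshold, and NRF2 may still have been bound there. At the 50 kb limit, the farthest peaks inside were those of Psmd14 at -49616 bp and Ube2ql1 at 48529 bp, and the nearest outside were those of Fbxw11 at -50495 bp and Usp6nl at -51015 bp. A further 15 genes of these families had peaks beyond 50 kb only.

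Ubiquitin is attached to proteins by a cascade of activating (E1), conjugating (E2) and ligating (E3) enzymes and removed by deubiquitinases such as the Usp family. Cullins are scaffolds of multi-subunit E3 ligases whose substrate receptors include F-box proteins, and many Trim proteins are E3 ligases with a RING domain. The proteasome has a barrel-shaped core particle, built from the Psma and Psmb subunits, and a regulatory particle of Psmc ATPases and Psmd subunits that unfolds tagged substrates. NRF2 is itself controlled by this system, since KEAP1 presents it to a CUL3 ligase, and NRF2 and its relative NRF1 are known activators of proteasome genes in stressed cells.

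Among the 58 RefSeq promoters given for members, only that of Fbxo40, a muscle F-box gene, overlapped a window of its own gene over most of its length. The windows annotated to promoters of Trim14, Trim16 and Usp19 overlapped none of the 58. The Fbxo40 promoter is shown for the motif it held. The sequence is from RefSeq (GRCm38.p6, the assembly of mm10), minus strand, chr16:36979137-36979354, and runs 218 bases up to the start site. Capitals mark the match to TGACNNNGC, the core of the antioxidant response element that NRF2 recognises with its small Maf partners, which began at -105 relative to the start.

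Fbxo40 upstream: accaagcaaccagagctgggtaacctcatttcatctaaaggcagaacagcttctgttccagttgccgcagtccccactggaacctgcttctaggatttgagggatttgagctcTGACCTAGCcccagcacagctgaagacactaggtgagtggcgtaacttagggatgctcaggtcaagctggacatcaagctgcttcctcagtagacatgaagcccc

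The window lay at -68 bp in WT cells without leucine, with score 24 and rank 4126 of 5980, so it stood low in its list, and Fbxo40 had no peak in the other 3 lists. A second Fbxo40 window of the same list lay in exon 2 of 3 at 8472 bp, with rank 2557. RefSeq promoters of 250 bases before to 50 after the start were given for 47 of the 68 members, 58 promoters in all. The core TGACNNNGC, searched on both strands, was in 11 of the 58 (19.0%, 95% interval 9.87 to 31.4) and in 12.4% of all 32851 promoters of that length. Besides Fbxo40 these were promoters of Fbxo8, Psme4, Trim15, Trim2, Ube2q2, Ube2ql1, Ube2v1, Usp2 and Usp20, where no member window reached the promoter. The AP-1 site TGANTCA, which can overlap the core, was in 3 of 58 (5.17%, 1.08 to 14.4) and in 7.81% of all promoters. All intervals are exact 95% Clopper-Pearson intervals for counting error alone. A match of letters is a description and not a shown binding site.

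Proteasome genes were reached by NRF2 peaks in every list, yet the recurrent site was at a single gene. Psmd5, which encodes an assembly chaperone of the regulatory particle, had a peak in intron 1 of 9 in all 4 lists, between 1155 and 1193 bp downstream of the TSS (chr2:34869619-34869919 in WT cells in complete medium). Its scores were 170, 116, 87 and 131, which gave ranks 111, 257, 214 and 152. The Psmd5 site thus stood within the first 6.81% of every list, and it led the 20 members of KO cells without leucine.

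The other proteasome members had no site shared between lists. Psmd7, a lid subunit of the regulatory particle, had peaks in both lists without leucine, but at different places: 241 bp downstream of the TSS in KO (intron 1 of 6, in a CpG island, rank 2004 of 4600) and -9568 bp in WT (rank 4126 of 5980). Psmc2 and Psmc3, ATPase subunits, had peaks in the WT list without leucine at 1601 and 1696 bp, with ranks 4885 and 5397. The Psmc2 window overlapped the RefSeq promoter of Psmc2 by 63 bp, so the start of that RefSeq promoter differs from the TSS used in the file. Psmd3, another lid subunit, and Psme4, a proteasome activator, had peaks in the same list at -7308 and 5890 bp, with ranks 2486 and 3470, both in repeats. These 4 genes, together with the Psmd7 site, stood between ranks 2486 and 5397 of 5980.

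WT cells in complete medium had peaks assigned to Psmd4, a ubiquitin receptor, to Psmd14, the deubiquitinase of the regulatory particle, and to Psma1 of the core, at -24146, -49616 and -46688 bp. Their ranks were 1365, 874 and 874 of 2336, and none of the 3 genes was in another list. Psma4 and Psmc1 had a peak in KO cells in complete medium at -12000 and 21382 bp (ranks 581 and 792), and Psmb7, a catalytic core subunit, at -29652 bp in KO cells without leucine (rank 2004). The Psma1, Psma4, Psmc1, Psmd3 and Psmd4 windows lay inside transcripts of other genes. By distance, then, the peaks near proteasome starts were those of Psmd5, Psmd7, Psmc2 and Psmc3. Of the 46 genes with these prefixes in the reference, 13 had a peak in any list (28.3%, 16.0 to 43.5), beside 25.6% of all 21900 protein-coding genes. The 13 were the 12 members and Psme3ip1, listed under an older symbol and counted by its prefix alone. By prefix alone, Psma and Psmb genes with a peak numbered 3 of 19 and Psmc and Psmd genes 8 of 21. The intervals of these shares (3.38 to 39.6 and 18.1 to 61.6) overlapped.

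Cullins had peaks at 3 of 8 genes, none of them in WT cells in complete medium. Cul9, which encodes a large cullin that binds p53, had a window in exon 14 of 41 in WT without leucine (rank 4126) and in KO in complete medium (rank 1509), at 20633 and 20655 bp, and the windows overlapped. A second Cul9 window in intron 4 of 40 was in the WT list alone (rank 2557). Cul3, the scaffold of the KEAP1 ligase, had an intergenic peak at -44155 bp, and Cul2, the scaffold of the VHL ligase, an intronic peak at 46115 bp, both in KO without leucine alone, with ranks 2346 and 751.

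Trim genes held the highest-ranking site of the families. The site lay downstream of Trim56, an antiviral E3 ligase gene, at 13027 to 13087 bp from its TSS (chr5:137102986-137103286 in WT cells in complete medium). Its scores were 205, 326, 152 and 106, with ranks 87, 51, 90 and 214. It was intergenic in all 4 lists and led the members in 3 of them. Both lists without leucine held another Trim56 peak, at 5277 bp in WT (rank 1524) and 10866 bp in KO (rank 3051).

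Trim16, which encodes a Trim protein without a RING domain, had a promoter peak in 3 lists. The windows were centred at 59 bp in WT with leucine, -1 bp in WT without it and 93 bp in KO with leucine (chr11:62820162-62820462, 62820102 to 62820402 and 62820196 to 62820496). The scores of 30, 57 and 24 gave ranks 1572, 670 and 2586, and the KO list without leucine had no Trim16 peak. The promoter was thus in the upper part of the list in WT without leucine alone, with a rank at 11.2% of that list against 67.3% and 82.3%. Ranks in lists of different length do not measure a change in binding.

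Other Trim starts had a window within 1 kb in 1 list each. Trim14 had a peak at -143 bp in WT without leucine (rank 1524), Trim6 in intron 1 of 7 at 649 bp in KO in complete medium (rank 383, score 61), and Trim45 in exon 1 of 6 at 740 bp in KO without leucine (rank 2346). Trim45 also had a peak in intron 2 of 6 at 3374 bp in WT without leucine. Trim62 had a peak in 3 lists at 3 different places, 3359, 21141 and 34258 bp downstream of the TSS. The Trim75 window of KO without leucine, rank 486 at -13667 bp, lay in exon 2 of 2 of Trim60. Trim members with a peak numbered 3, 10, 6 and 5.

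Among F-box genes, Fbxo33, whose product is a substrate receptor, had an intergenic peak downstream of its TSS in the lists without leucine alone. It was at 20502 bp in WT (score 49, rank 916) and 20463 bp in KO (score 75, rank 348), and the windows overlapped. Fbxo21 had a peak in both KO lists and in no WT list, at -9046 bp with leucine (rank 474) and at -37961 and 9161 bp without it (ranks 2346 and 2742), so no site was shared. Fbxo25 and Fbxo47, at rank 634 each, had a peak in WT in complete medium alone. Of the 78 F-box genes in the reference 17 had a peak in any list, 10 of 36 Fbxo, 6 of 18 Fbxl and 1 of 24 Fbxw genes. The Fbxw gene was Fbxw17, in the WT list without leucine, chosen for mention after its value was seen.

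Among conjugating enzymes, Ube2o, a large E2 that can also act as a ligase, had the recurrent site. It lay in intron 1 of 17, at 8151, 8051 and 8120 bp in WT with leucine, WT without it and KO with leucine, with scores 39, 57 and 53 and ranks 1083, 670 and 485. It was missing from KO without leucine. Ube2v1, an E2 variant that lacks the catalytic cysteine, had different sites in the WT lists, at -10412 bp with leucine (rank 1592) and 5920 bp without it (rank 1509). Ube2ql1 had peaks in both KO lists and in no WT list, again at different places (-9095 and -28235 bp with leucine, 48529 bp without). Ube2 members numbered 2, 6, 2 and 2.

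Genes with the Usp prefix and a peak numbered 1, 10, 2 and 3 of 57. These were counted by prefix alone, so Uspl1 is among them and they are not counts of deubiquitinase genes only. The 10 in WT without leucine were 17.5% (8.75 to 29.9), beside 13.5% of all protein-coding genes. Usp3, which removes ubiquitin from histones, had an intergenic peak between -37973 and -38058 bp in all lists but WT in complete medium, with scores 53, 51 and 46 and ranks 856, 581 and 907. Uspl1, which has a Usp-like name but acts on SUMO, had a peak in intron 6 of 9 in WT without leucine and KO with leucine, with scores 96 and 95 and ranks 331 and 200. Usp19, an enzyme anchored in the endoplasmic reticulum, had a promoter peak at -480 bp in WT without leucine (rank 2557) and a different peak in intron 15 of 26 in KO without leucine (rank 3051). The other Usp members with a peak each had it in 1 list.

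**Figure D1:**
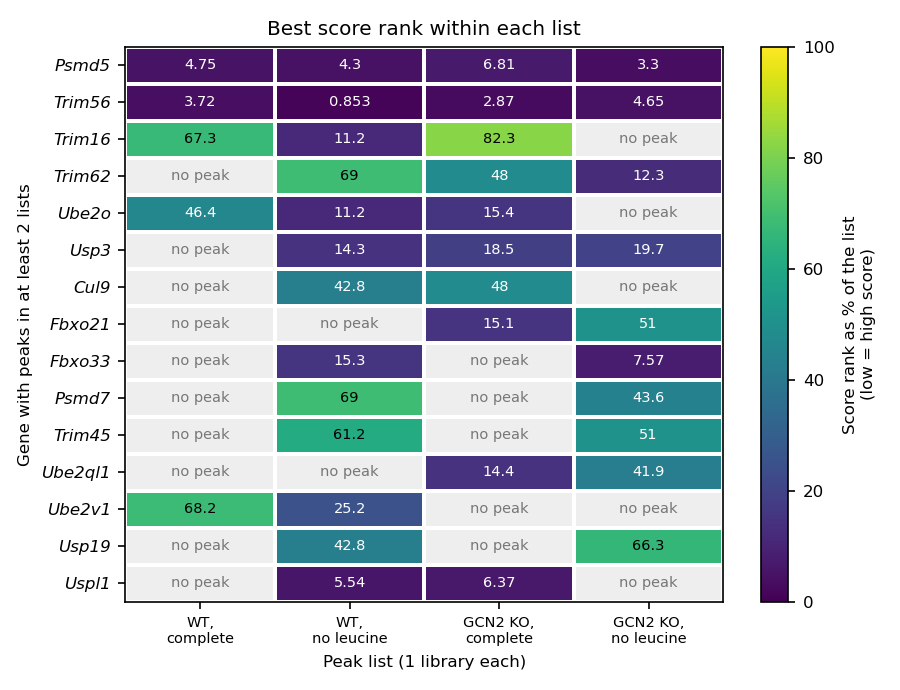
Best score rank of the named genes with a peak in 2 or more lists, as a percentage of the list (columns, 1 library each), where a low number is a high score and grey is no peak. Psmd5 and Trim56 had low values in all 4 columns, at most 6.81% for Psmd5 and 4.65% for Trim56, while Trim16 ranged from 11.2% to 82.3%.

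Of the 68 members, 52 had a peak in 1 list, 9 in 2, 5 in 3 and 2 in all 4. Over all 6513 genes, the corresponding shares were 71.8%, 19.0%, 5.71% and 3.52%, beside 76.5% (64.6 to 85.9), 13.2% (6.23 to 23.6), 7.35% (2.43 to 16.3) and 2.94% (0.358 to 10.2) of members, so each lay inside the members' interval. Among the 16 genes found in several lists, 9 had overlapping windows, among them Psmd5, Trim56, Trim16, Ube2o, Usp3, Cul9, Fbxo33 and Uspl1, and 7 had only different sites. The 9 were 56.2% of the 16 (29.9 to 80.2), beside 34.1% of all 1838 genes found in several lists, a share inside that interval. The 103 peaks formed 85 sites, of which 10 (11.8%, 5.79 to 20.6) were in 2 or more lists, beside 7.06% of all regions within 50 kb.

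Sharing followed the score among members much as it did among all peaks. All 15 member peaks in the highest-scoring 10% of their list overlapped a peak of another list, as did 10 of 51 between 10% and 50% and 3 of 37 in the lower 50%. The first share had a lower limit of 78.2%, and the others were 19.6% (9.82 to 33.1) and 8.11% (1.7 to 21.9), beside 83.6%, 14.5% and 4.41% of all peaks within 50 kb in the same score classes. The median rank of member peaks stood at 42.8%, 42.8%, 18.5% and 43.6% of the list, beside 47.4%, 42.8%, 48.0% and 51.0% for all peaks within 50 kb of a TSS. The KO list in complete medium thus had member peaks placed high. There 16 of 20 (80.0%, 56.3 to 94.3) were in the higher-scoring 50%, beside 55.0% of all its peaks within 50 kb, and the Trim56, Psmd5 and Uspl1 windows were in its first 10%.

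**Figure D2:**
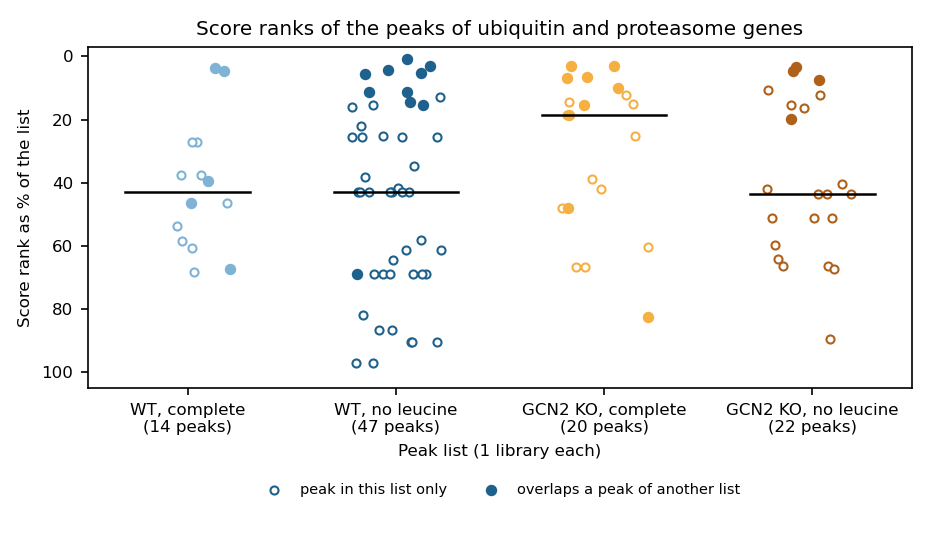
Score rank of every member peak as a percentage of its list (vertical axis, best at the top) by list, with filled points for windows that overlap a peak of another list and black lines at the medians. All points in the first 10% are filled, filled points farther down include Trim16 at 67.3% and 82.3% and Cul9 at 69.0%, and the median of KO in complete medium, 18.5%, is the highest placed.

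Of the 103 peaks 51 were intronic (49.5%), 27 intergenic (26.2%), 16 exonic (15.5%, 9.15 to 24.0), 6 in promoters (5.83%, 2.17 to 12.2) and 3 at transcript ends. All peaks within 50 kb were 47.9% intronic, 36.5% intergenic, 6.50% exonic and 3.42% promoter. A site found in several lists is counted in each of them here, and exonic windows were not tested against other genes. Exonic windows were assigned to Cul9, Fbxo40, Psmc2, Trim45 and Trim75, and to Trim11, Trim15, Trim42, Ube2g2 and Ube2m. Of these genes the last 5 are named after their values were seen. The Trim75, Ube2g2 and Ube2m windows lay in exons of other genes, namely Trim60, Sumo3 and Mzf1. Of the 103 windows 62 lay in a transcript of the gene they were assigned to, 14 in a transcript of another gene and 27 between genes. Median GC content of member windows was 50.7%, 52.8%, 51.0% and 52.2%, close to 51.8%, 52.5%, 52.5% and 52.2% for all windows within 50 kb.

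WT cells without leucine had member windows nearer to starts and more often in short repeats than the rest of that list. There, 30 of 47 windows (63.8%, 48.5 to 77.3) were within 10 kb of the TSS, beside 40.8% of all windows within 50 kb. In the other lists the member shares were 35.7%, 35.0% and 36.4%, beside 38.8%, 40.0% and 37.6%. SINE repeats, short interspersed elements of rodent genomes, covered 12 of the 47 (25.5%, 13.9 to 40.3), beside 9.59% of all. None of these 12 overlapped a peak of another list, as was the case for 80.1% of the 397 SINE windows within 50 kb in that list, and among them were windows at Psmd3, Psmd7, Trim45, Ube2v1 and Cul9. Member windows in SINEs numbered 1 of 14, 0 of 20 and 1 of 22 in WT with leucine, KO with leucine and KO without. The difference between lists was not tested.

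Within 1 kb of a TSS there were 9 windows, at 7 genes: Fbxo40, Psmd7, Trim14, Trim16, Trim45, Trim6 and Usp19. They made up 1 of 14, 4 of 47, 2 of 20 and 2 of 22 member windows, beside 7.08%, 7.63%, 5.79% and 5.79% of all windows within 50 kb.

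**Figure D3:**
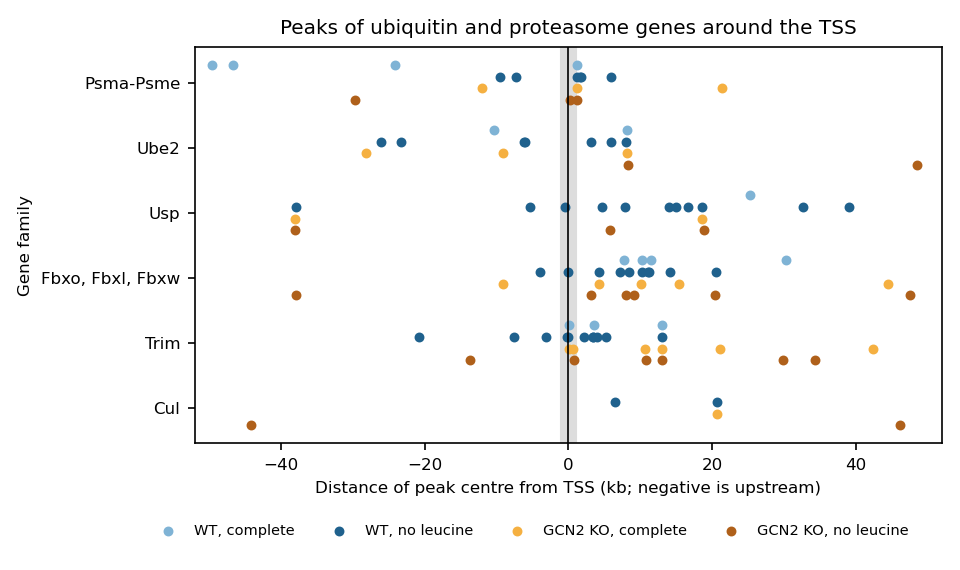
Distance of each member peak from the TSS in kb (horizontal axis, negative upstream, grey band within 1 kb) by family, with colours for the 4 lists. The repeated columns of points at Trim, Usp and Psma-Psme are the Trim56 site at 13027 to 13087 bp, the Usp3 site at -37973 to -38058 bp and the Psmd5 site at 1155 to 1193 bp.

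The first comparison, leucine withdrawal in WT cells, describes which of these genes had NRF2 peaks when an amino acid was missing. Members with a peak numbered 14 with leucine and 41 without it. By gene ID these were 14 and 42 of the 296 family genes in the reference (4.73%, 2.61 to 7.81, and 14.2%, 10.4 to 18.7), beside 5.61% and 13.5% of all protein-coding genes, and both background shares lay inside the intervals. Genes in both included Psmd5, Trim16, Trim56, Ube2o and Ube2v1. The 35 genes in the list without leucine alone made up 71.4% of the 49 in either, beside 66.2% of all genes in either list. The 8 in the complete-medium list alone made up 16.3%, beside 19.0%, and the 6 in both 12.2%, beside 14.9%. Cut to the length of the shortest list, the members numbered 14 and 17, and all genes 1432 and 1464.

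In KO cells the same change of medium left the number of members at 18 with leucine and 20 without, beside 7.13% and 9.81% of all protein-coding genes with a peak. By gene ID these were 19 of 296 (6.42%, 3.91 to 9.84) and 20 of 296 (6.76%, 4.18 to 10.2), and both background shares again lay inside the intervals. Fbxo21, Psmd5, Trim56, Trim62, Ube2ql1 and Usp3 were in both, 18.8% of the 32 in either list, beside 16.8% of all genes. The 14 without leucine alone (43.8%, beside 50.9%) included Cul2, Cul3, Fbxo33, Psmb7, Psmd7 and Usp19. The 12 with leucine alone (37.5%, beside 32.3%) included Cul9, Psma4, Psmc1, Trim16, Trim6, Ube2o and Uspl1. At equal list lengths the numbers were 16 and 13, and those of all genes 1365 and 1316. Both differences thus turned direction, since all genes numbered 1814 and 2504 in the full lists.

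Between genotypes in complete medium, 14 members had a peak in WT and 18 in KO. The 5 in both, which included Psmd5, Trim16, Trim56 and Ube2o, were 18.5% of the 27 in either, beside 14.1% of all genes. KO alone held 13 (48.1%, beside 49.7%), among them Usp3, Uspl1, Cul9 and Trim6, and WT alone 9 (33.3%, beside 36.3%), among them Psmd4, Psmd14 and Psma1. At equal lengths the numbers were 14 and 16, and those of all genes 1432 and 1365.

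Without leucine, 41 members had a peak in WT and 20 in KO. The 8 in both were Fbxo33, Psmd5, Psmd7, Trim45, Trim56, Trim62, Usp19 and Usp3, 15.1% of the 53 in either, beside 17.9% of all genes. Of these 8, overlapping windows were found at Fbxo33, Psmd5, Trim56 and Usp3. WT alone held 33 (62.3%, beside 50.3%) and KO alone 12 (22.6%, beside 31.8%). Trim16, Ube2o, Uspl1 and Cul9 were in the WT list and not in the KO list, and all of them were also in the KO list with leucine. At equal lengths the numbers were 17 and 13, and those of all genes 1464 and 1316. The comparisons share lists, so they are not independent of each other.

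**Figure D4:**
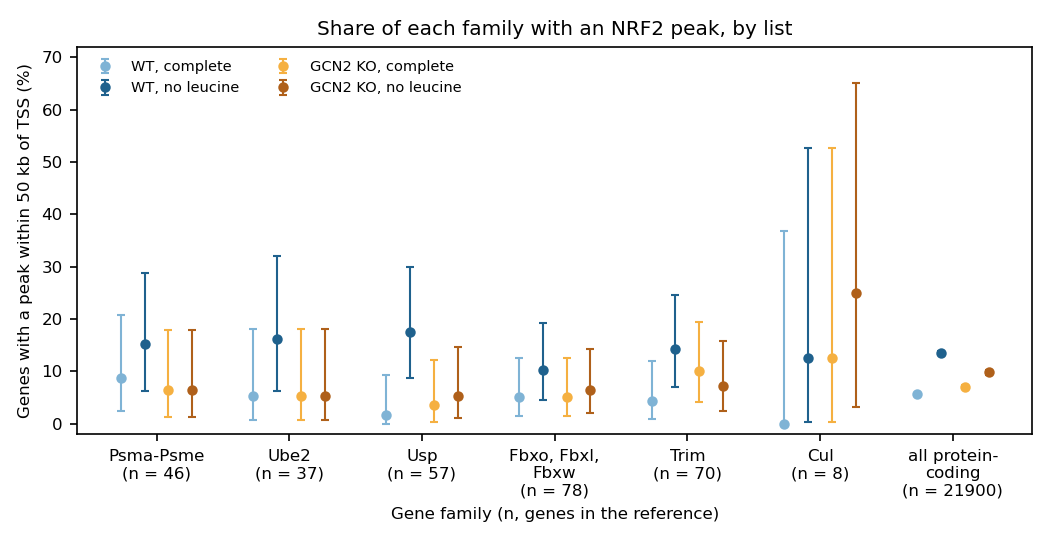
Percentage of the genes of each family in the reference with a peak within 50 kb of the TSS (points) and exact 95% intervals (bars), by list in 4 colours, with all protein-coding genes at the right. The dark blue points of WT without leucine are above the other 3 in every family except Cul, as they are among all protein-coding genes, and the intervals overlap within each family.

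The family genes differed in length. Median gene length was 10817 bp for proteasome genes, 24808 bp for F-box, 15865 bp for Trim, 30405 bp for Ube2, 47434 bp for Usp and 49353 bp for Cul genes, beside 17146 bp for all protein-coding genes. Over any list, a peak was found at 21.1% of Usp (11.4 to 33.9), 21.6% of Ube2 (9.83 to 38.2), 21.8% of F-box (13.2 to 32.6), 24.3% of Trim (14.8 to 36.0) and 37.5% of Cul genes (8.52 to 75.5). Each of these intervals included the 25.6% of all protein-coding genes, and within each list the interval of each family included that list's share. Taken by single prefix, Fbxw, at 1 of 24 genes (4.17%, 0.105 to 21.1), had an interval wholly below 25.6%. The intervals of the other prefixes included 25.6%. The low Fbxw share was not tested. The part of length in these shares was not tested.

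Some windows inside family genes were assigned to a neighbour with a nearer start. Of the 103 windows that lay inside a transcript of a family gene, 25 were assigned to a gene outside the families, at 15 family genes. An example was Usp48, a deubiquitinase gene, whose intron 23 of 27 held a site in all 4 lists assigned to Rap1gap (chr4:137643527-137643827 in WT with leucine, -21049 bp from that TSS). Its scores were 102, 96, 114 and 198 and its ranks 224, 331, 156 and 82. Psmd3 also held such a window, in intron 6 of 11 in WT without leucine (rank 2557), assigned to Csf3, and Usp19 in exon 27 of 27 in KO in complete medium (rank 1318), assigned to Qars. Usp48 is not a member and was chosen for mention after its values were seen.

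Other genes of the pathway were taken from a list of 148 genes, of which 146 matched the reference. Those without a match stayed in the 148 as genes without a peak. With a peak within 50 kb there were 18, 26, 16 and 14 (12.2%, 17.6%, 10.8% and 9.46%), 48 in any list and 4 in all lists. The shares of all protein-coding genes were 5.61%, 13.5%, 7.13% and 9.81%, and the interval of the list's share lay above them in WT with leucine alone (7.37 to 18.5). Over any list the share was 32.4% (25.0 to 40.6), beside 25.6%, and since the list was chosen with earlier results known, nothing is read from the difference. Those in all lists included the autophagy receptor gene Sqstm1, Mafg, which encodes a small Maf partner of NRF2, and Mdm2, the E3 ligase of p53. Mdm2 had an intergenic peak at -7014 to -7069 bp with ranks 76, 41, 58 and 49, and Sqstm1 ranked 116, 71, 214 and 72.

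Among genes of that list with a peak in 2 or 3 lists, Keap1 had a peak in its 5' UTR in WT without leucine (rank 2557) and KO with leucine (rank 2096). Nfe2l2, which encodes NRF2, had an intronic peak in both WT lists (ranks 314 and 2077) and in no KO list. Arih2, an E3 ligase of the RING-between-RING type, ranked 874, 792 and 503 in every list but WT without leucine. Rad23b, a shuttle that delivers substrates to the proteasome, and Akirin2, a factor for nuclear import of proteasomes, each had a site in both lists without leucine alone, at ranks 187 and 591 and at 1403 and 751. Zfand5, a proteasome regulator, and Ubr7 were in both WT lists alone, Nedd4, Psmg3 and Mysm1 in WT without leucine and KO with it, Stub1 in both KO lists, and Bach1 in every list but KO without leucine. None of the 8 E1 genes and none of the 9 COP9 signalosome genes had a peak within 50 kb in any list, and the upper limits of 36.9% and 33.6% for 0 of 8 and 0 of 9 were above the 25.6% of all protein-coding genes.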

How the data were processed

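NRF2 peaks were deposited for 4 libraries, 1 per condition, and read length was 50 bp, single end, per the labels' protocols. BWA 0.7.12, MACS2 2.1.0 and HOMER 4.7 on mm10 are named in the submitters' processing notes, without settings. The file headers show HOMER annotation of 300 bp windows to the nearest TSS. The peak score is the authors' whole number, at least 13 in every list, and the sources used here do not say what it was computed from. GC and CpG content were deposited as a fraction of the window. Distances to the TSS are signed, in bp, as deposited.

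Members were found by symbol prefix and a distance limit of 50 kb, and windows overlapping by 1 bp formed sites. Members and lists were chosen with earlier results of these data known. Family sizes came from the RefSeq gene table of GRCm38.p6, matched by gene ID (68 of 68 members). The shares by gene ID also count Psme3ip1 and Trim80, listed under older symbols. Named were all proteasome and cullin members, members in 2 or more lists, the 5 best-ranked members of each list, members within 1 kb of the TSS, and genes of the other pathway list in 2 or more lists. Some genes that this rule picks are not reported here by name, and stay in the counts. No test was made. Alternatives were distances of 10 kb, 1 kb or any length, the higher-scoring 50%, equal list lengths, no repeats, stricter symbols, other overlaps and a looser motif. Python 3.11.15, pandas 2.3.3 and scipy 1.17.1 were used. Motif and overlap code was tested on simulated data.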

Additional observations from a re-analysis of the deposited data

Results flagged for a closer look

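The number of members moved in opposite directions under the same contrast in several groups. This difference was not tested, since each condition is 1 library. KO minus WT was 4 members in complete medium and -21 without leucine. For Trim it was 3 and -5, and for Usp 1 and -7. The Trim count changed by 7 on leucine withdrawal in WT cells and by -1 in KO cells. All genes with a peak within 50 kb moved the same way between genotypes, from 1432 to 1814 in complete medium and from 3431 to 2504 without leucine, as did the list lengths. On leucine withdrawal all genes in the full lists rose in both genotypes, from 1432 to 3431 in WT and from 1814 to 2504 in KO cells. The Trim count in KO cells thus did not follow all genes. By gene ID it was 7 and 5 of 70. The intervals (4.12 to 19.5 and 2.36 to 15.9) included the 7.13% and 9.81% of all protein-coding genes.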

How the results depend on the processing

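Counts of members depended on list length and distance. Here the higher-scoring 50% and the equal lengths were cut in the deposited order, so peaks of equal score at the cut were split. The shares of the higher-scoring 50% given earlier kept such ties together. In the order WT with and without leucine, KO with and without it, equal list lengths moved the 41 to 17 and the 20 to 13, the higher-scoring 50% gave 9, 22 and 13 (WT with, WT without, KO without leucine), a limit of 10 kb gave 5, 7 and 8 (WT with leucine and both KO lists), a limit of 1 kb gave 1, 4, 2 and 2, and no limit gave 22 for WT with leucine. The WT difference of 27 became 13, 3, 3 and 17 with the higher-scoring 50%, equal lengths, 1 kb and no repeats. The KO difference of 2 turned to -1 with the higher-scoring 50% and -3 at equal lengths. It was 1, 0 and 1 at 10 kb, 1 kb and any distance. In KO cells all genes also fell at equal lengths, from 1365 with leucine to 1316 without. With the higher-scoring 50% they rose, from 932 to 1301. KO minus WT in complete medium, 4, was 2, 1 and 2 at 10 kb, 1 kb and equal lengths, and without leucine, -21, it was -2, -9, -4 and -10 at 1 kb, the higher-scoring 50%, equal lengths and no repeats. The cause of these changes was not tested. The looser core TGANNNNGC was in 44.8% of member promoters and 41.3% of all. The other 29 values stayed within 1.5 times the reported one. No paired analysis was possible because each condition has 1 library. Depth is unknown.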

Other observations

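Ecpas, the proteasome adaptor gene also known as ECM29 and listed as AI314180, had an intergenic peak at -2901 bp in KO cells without leucine alone, with score 100 and rank 225 of 4600. The list of 148 pathway genes held it under a name that did not match, so it was counted there as a gene without a peak. The shares of that list in KO without leucine and over any list are thus low by this gene. Ecpas was chosen for mention after its value was seen. Trim80, listed as 4933422H20Rik, had a peak at -2793 bp in KO cells in complete medium, with rank 2470 of 3141. Psme3ip1, listed as Fam192a, had an intronic peak at 32168 bp in WT cells without leucine, with rank 1201 of 5980.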
